A study of Mus musculus with 78 samples.

Results

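The genes described here encode the machinery that copies the genome in S phase. They were chosen by symbol among the protein-coding rows of both gene tables, and cover the origin recognition complex (Orc1 to Orc6), the licensing factors Cdc6 and Cdt1 with the licensing inhibitor Gmnn, the Mcm genes, Cdc45 with the GINS genes, the replicative polymerases and primase, the sliding clamp Pcna with its loader (Rfc1 to Rfc5), the single-strand binding proteins Rpa1 to Rpa3, and Fen1 with Lig1. The rule named 46 genes out of 13604 listed at both stages (15218 in the 4-cell table and 15342 in the 8-cell table), and all 46 also passed the filter on low values (1 or more blastomeres with an FPKM over 1, which 13041 genes had). Mcm3ap was not taken in, because its symbol goes on after the digit.

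The measurements were Smart-seq2 transcriptomes of single blastomeres from Rainbow embryos, in which a Cre-activated fluorescent colour follows the descendants of each 2-cell blastomere. Embryos came from a cross of mice with the CAG-Brainbow2.1 cassette in Gt(ROSA)26Sor and Tg(CAG-cre/Esr1*)5Amc/J mice, so that both stages carried 1 copy of the Brainbow construct and 1 copy of a tamoxifen-dependent Cre driven by the ubiquitous CAG promoter. At both stages the embryos had been exposed to 4-Hydroxytamoxifen for 2 hours as 2-cell embryos and then grown in KSOM, with no untreated group, so the values describe recombined, cultured embryos. There are 24 blastomeres in the 4-cell table and 26 in that of the 8-cell stage. Their column names match no sample label, so neither the embryo nor the colour of a blastomere is used below. Blastomeres of 1 embryo are not replicates, so each stage counts as 1 sample, values are given as lowest, median and highest over blastomeres, and no stage difference carries a test. Values are FPKM, mapped fragments scaled by transcript length and by the library's total, a relative level from which the amount of RNA per blastomere cannot be read. The tables were deposited as separate tables, which applies to each level set across stages below.

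DNA replication is prepared in G1, when the origin recognition complex, Cdc6 and Cdt1 load the MCM2-7 ring onto DNA, a step called licensing. Geminin, the product of Gmnn, binds Cdt1 after licensing and blocks a further round. In S phase Cdc45 and the GINS complex join MCM2-7 to form the active helicase, polymerase alpha with primase lays down primers, polymerases epsilon and delta extend the strands with the clamp Pcna, and Fen1 and Lig1 process and join Okazaki fragments. Early mouse blastomeres divide without growth and are known to start with transcripts stored in the oocyte, which are replaced by embryonic ones after genome activation at the 2-cell stage. Many replication genes are classical targets of the E2F factors.

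Promoter sequence is shown first because it is a feature that the rule did not use. RefSeq windows (GRCm38.p6, the assembly behind mm10, 250 bases before to 50 after each gene start) matched 38 of the 46 genes. All 47 of their windows equalled the genome on the gene's strand. An E2F core was searched on both strands in the forms TTCCCGC (the classical site) and TTGGCGC (the form seen in Mcm6 below), and also as TTCGCGC. It was in the windows of 25 of these 38 genes (65.8%), against 11.8% of all 17492 genes with a window and 18.9% of the 5534 that exceeded an FPKM of 1 in 50% or more of the 4-cell blastomeres. TTGGCGC and TTCGCGC can overlap on opposite strands, so genes were counted and not matches. CCAAT, searched on both strands, was in 63.2% of the replication genes with a window and 42.3% of all genes with a window. The 5 genes below are shown because their levels are described in detail, with 1 core of each in capitals (the stretches of Mcm5 and Mcm6 hold a further form, partly or wholly in lower case), read 5′ to 3′ on the gene's strand and cut to 30 bases before an annotated start:
Mcm5 (plus strand, chr8:75109334-75109363): gttagctgctaGCGCCAAgaactttcgcgc
Mcm6 (minus strand, chr1:128359733-128359762): attggacgggtTTGGCGCgaagtagctcag
Mcm7 (minus strand, chr5:138171361-138171390): gcgctagcgaaTTCCCGCgtccactggaga
Orc3 (minus strand, chr4:34614964-34614993): catgcctccctTTCCCGCacgccccgcctc
Pole4 (minus strand, chr6:82652890-82652919): ctctacccggcGCGGGAAaggggccgaaat

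The windows of Orc2, Orc5, Orc6, Mcm2, Mcm9, Mcm10, Cdc45, Pola2, Pold2, Pold4, Pcna, Rfc5 and Rpa1 held no such core, which says only that these letters were not in these windows. Windows were not used for Gmnn, Mcm4, Gins1, Gins2, Gins4, Prim2, Pole and Rfc2.

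Nearly all of the replication genes were detected at both stages. The median over blastomeres was above an FPKM of 1 for 44 of the 46 genes at the 4-cell stage and for 43 at the 8-cell stage, against 44.4% and 40.6% of all genes in the respective table. Their summed level was 2238, 3035 and 4070 FPKM (lowest, median, highest) at the 4-cell stage and 2549, 2918 and 3266 FPKM at the 8-cell stage, so that the 8-cell range lay within that of the 4-cell stage. In both tables Gmnn, Mcm6, Pole4, Rpa2, Pcna, Pold3 and Orc6 lay at or above the 94.7th percentile of gene medians. Mcm9, which encodes a helicase used in repair, and Pold4, the smallest polymerase delta subunit, were at a median of 0 at both stages.

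Libraries differed in how many genes they held. Depth, read from the smallest steps of the FPKM values, was 6.87 to 16.9 M fragments per blastomere (M, mega) at the 4-cell stage and 2.33 to 21.7 M at the 8-cell stage. Fewer than 5000 genes were above an FPKM of 1 in 3 blastomeres of each stage (3009 to 4939 and 3548 to 4963 genes), against medians of 7155 and 6773 genes. In those gene-poor blastomeres 17 to 34 and 26 to 35 replication genes were above 1, against 32 to 45 and 31 to 45 in the others. The 3 gene-poor 8-cell blastomeres lie among the neighbouring columns S53 to S58. These columns held 3548 to 5391 genes above 1, against 5884 to 8078 in the other 8-cell columns. The cut at 5000 genes therefore took out only part of this block. Blastomere markers were present at both stages (9 and 7 of 10 with a median above 1, Dppa3 at 3658 and 3260 FPKM). The summed level of 10 cumulus and granulosa genes, of which 5 and 4 were listed, had a median of 0 and at most 9.51 FPKM, and the 3 blood genes were not listed.

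The 4-cell table also held a division by column number, noticed from the values. Between columns S1 to S12 and S13 to S24 the medians of log2(FPKM + 1) differed by at least 1 for 39.6% of the 6878 genes detected in 50% or more of the columns, and for 16 of the 46 replication genes (34.8%). That filter was not applied to the 46, and Mcm9 and Pold4 did not pass it. The 3 gene-poor 4-cell blastomeres are all among S13 to S24. The column names do not say what the sets stand for, so the stage differences that move between the sets are also given against the 12 columns of either set alone.

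**Figure D1:**
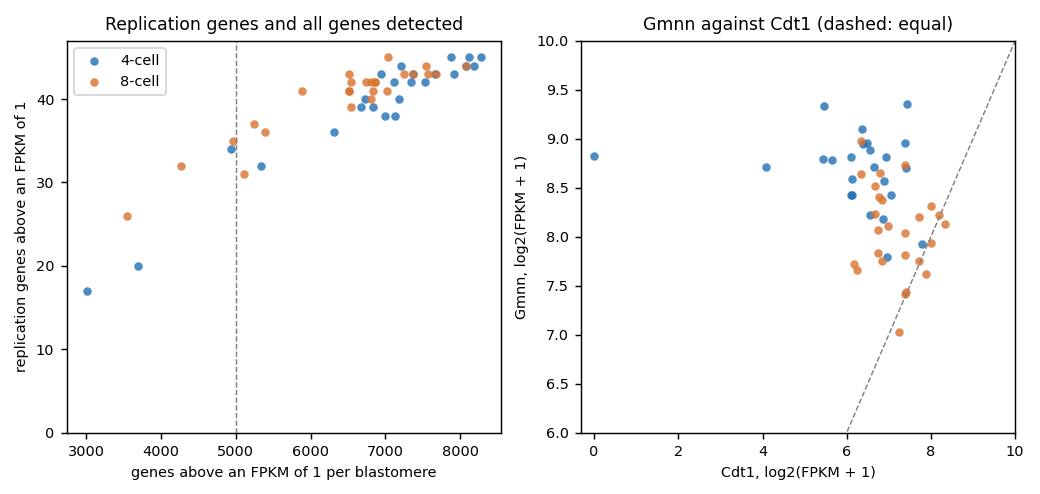
Left, number of replication genes above an FPKM of 1 (of 46) against the number of all genes above 1, 1 point per blastomere (blue 4-cell, orange 8-cell), with the dashed line at 5000 genes; right, Gmnn against Cdt1 on the log2(FPKM + 1) scale, with the dashed line where they are equal. The 2 4-cell blastomeres with the fewest genes have 17 and 20 replication genes above 1 and the 8-cell blastomere with the fewest genes has 26, and 24 of 24 4-cell points against 22 of 26 8-cell points lie above the line of equality.

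At the 4-cell stage 11 of the 46 genes were above an FPKM of 1 in every blastomere (Orc1, Orc2, Orc4, Gmnn, Mcm6, Cdc45, Pola1, Pold3, Pole4, Pcna and Rfc1), against 8.88% of all genes. At the 8-cell stage the number was also 11, against 11.4% of all genes, but only Orc4, Gmnn, Pold3, Pole4 and Pcna were in both lists. Without the gene-poor blastomeres the counts were 23 of 46 over 21 blastomeres and 20 of 46 over 23, against 17.9% and 15.8% of all genes. These counts therefore moved with the gene-poor libraries. Values listed at 0 made up 12.5% of the replication values at the 4-cell stage and 8.28% at the 8-cell stage.

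Between the stages, the 46 genes had no common direction. Of the MCM2-7 genes 3 of 6 were higher at the 8-cell stage by the measure below and none lower, and of CDC45 with GINS 2 of 5 were lower and none higher. The difference was taken as the 8-cell median minus the 4-cell median of log2(FPKM + 1), and its median over the 46 genes was 0.01, with 23 genes above 0, 21 below and 2 at 0. Over all 13041 tested genes the median was 0, with 3633 genes above 0, 4841 below and 4567 at 0. A difference of at least 1 towards the 8-cell stage was found for 7 of the 46 genes (15.2%), Orc3, Mcm4, Mcm5, Mcm7, Rfc4, Fen1 and Lig1, against 5.4% of all tested genes. A difference of at least 1 in the other direction was found for Cdc45 and Gins2 (4.35%), against 10.1% of all tested genes. The shares of all tested genes, here and below, are not matched for level. Of the 13041 genes 4567 lay at a difference of 0, against 2 of the 46. How far level accounts for the unequal shares was not tested. Just inside and just outside the threshold were Lig1 at 1.02 and Mcm3 at 0.99. Without the gene-poor blastomeres 5 genes were higher (Mcm3, Mcm4, Mcm5, Mcm7 and Fen1) and the same 2 lower, against 5.19% and 10.8% of all tested genes. Against columns S1 to S12 alone 3 genes were higher (Mcm3, Mcm4 and Fen1, against 3.54% of all tested genes) and 2 lower (Mcm8 and Gins2, against 14.7%). Against S13 to S24 alone 14 were higher (Orc3, Orc5, Mcm5, Mcm7, Mcm8, Pola1, Pold1, Pold2, Pole2, Rfc3, Rfc4, Rpa1, Fen1 and Lig1), against 13.2%, and 3 lower (Orc1, Cdc45 and Gins3), against 10.6%. Fen1 was the 1 gene higher by the threshold against both sets, and no gene was lower by it against both. For 15 of the 46 genes the difference lay on opposite sides of 0 against S1 to S12 and S13 to S24 (Orc1, Orc2, Orc5, Cdc6, Mcm8, Pola1, Prim1, Pole, Pole2, Pole3, Rfc1, Rfc2, Rfc4, Rfc5 and Rpa2), so their difference over all columns has no settled direction. No share of all tested genes is given beside this count. Whether replication genes are less settled than other genes was not tested.

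A second measure was added after the data had been seen, namely the share of the 624 pairs of an 8-cell and a 4-cell blastomere in which the 8-cell level was the higher. It was at least 75% for 6 genes (13%), Orc3, Mcm3, Mcm4, Mcm5, Mcm7 and Fen1, against 2.71% of all tested genes. The 8-cell level was the lower in at least 75% of pairs for 3 genes (6.52%), Gmnn, Cdc45 and Pole4, against 4.55%. Without the gene-poor blastomeres Cdt1 joined the first list, and Orc6, Gins1 and Gins4 joined the second, against 3.33% and 6.4% of all genes. By this measure 4 genes were higher against S1 to S12 alone (2.45% of all tested genes) and 5 lower (9.22%), and against S13 to S24 alone 10 were higher (8.6%) and 4 lower (6.69%). Mcm4 and Mcm7 were among the higher genes against both sets, and Gmnn, Cdc45 and Pole4 among the lower ones. The full ranges of the stages overlapped for every one of the 46 genes, and no gene of the whole table had ranges apart (0%).

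**Figure D2:**
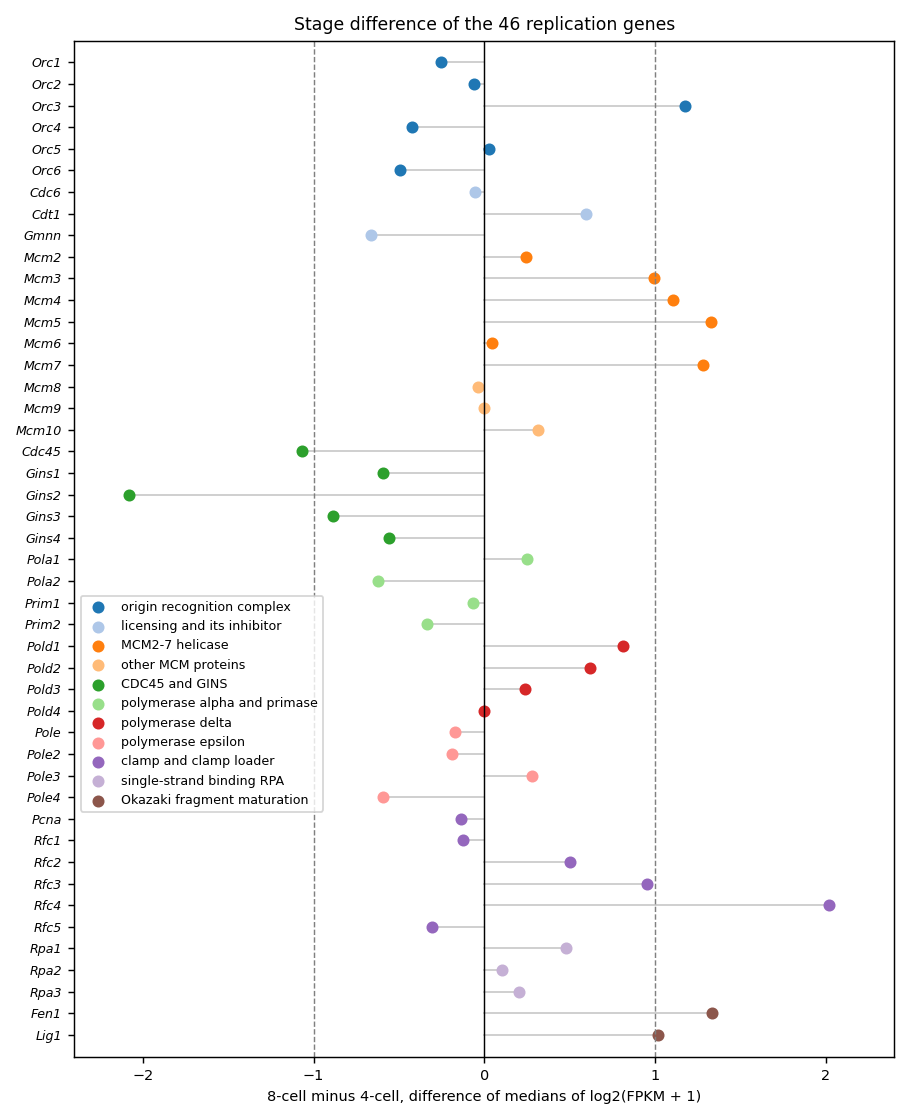
Difference between the stage medians of log2(FPKM + 1), 8-cell minus 4-cell, for each of the 46 replication genes, coloured by role, with dashed lines at differences of 1 and -1. The MCM2-7 points lie at or above 0.04, the 5 CDC45 and GINS points lie at or below -0.56.

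Over all columns the MCM2-7 helicase genes had a median log2 difference of 1.05, and 3 of the 6 were higher by at least 1. Against S1 to S12 alone those higher by it were Mcm3 and Mcm4. Against S13 to S24 alone they were Mcm5 and Mcm7, so none of the 6 was called against both sets. The 6 products form 1 ring, yet at both stages their transcripts were unequal in level. Mcm6 (chr1:128331575-128359705) was the highest of the 6 in 23 of 24 4-cell blastomeres and in 20 of 26 8-cell blastomeres. Mcm5 (chr8:75109468-75128439) was the lowest in 11 and 14. The spread of the 6 medians was narrower at the 8-cell stage, where Mcm3, Mcm4, Mcm5 and Mcm7 were higher and Mcm6 nearly level.

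Mcm7 (chr5:138164583-138172111) was at 0, 51.2 and 114 FPKM (lowest, median, highest) in 4-cell blastomeres and at 0, 126 and 179 FPKM in 8-cell blastomeres. No 4-cell blastomere exceeded the 8-cell median, and 23 of 26 8-cell blastomeres exceeded the 4-cell median. The difference of medians was 1.28 on the log2(FPKM + 1) scale, a ratio of 2.45, and the 8-cell level was the higher in 83% of pairs. The difference was 0.72 against S1 to S12 and 1.62 against S13 to S24. Mcm4 (chr16:15623897-15637400) ran from 0 through a median of 38.2 to 132 FPKM at the 4-cell stage and from 21.8 through 83.2 to 191 FPKM at the 8-cell stage. It was listed at 0 in 4 blastomeres of the 4-cell stage and in none of the 8-cell stage. The difference of medians was 1.11 (1.19 and 0.87 against either set of columns) and the pair share 81.4%.

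Mcm5 was at 0, 14.8 and 51.2 FPKM and then at 0.02, 38.5 and 105 FPKM, a log2 difference of 1.33 that became 1.02 without the gene-poor blastomeres. These include 3 of the 4 blastomeres with Mcm5 at 0 at the 4-cell stage and both near 0 at the 8-cell stage. Against S1 to S12, with a median of 24.5 FPKM, the Mcm5 difference was 0.63, and against S13 to S24, with a median of 7.96 FPKM, it was 2.14. Mcm3 (chr1:20802966-20820312) was at 0, 26.5 and 66.3 FPKM at the 4-cell stage and at 0, 53.7 and 119 FPKM at the 8-cell stage. Its log2 difference of 0.99 became 1.16 without the gene-poor blastomeres, and its pair share was 77.3%. Against S1 to S12 and S13 to S24 it was 1.51 and 0.57. Mcm2 and Mcm6 were near level, although they belong to the same ring. Mcm2 had medians of 63.1 and 75 FPKM (log2 difference 0.25), and Mcm6 had medians of 191 and 197 FPKM (0.04), with 4-cell values of 86 to 546 and 8-cell values of 0.83 to 342 FPKM.

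The summed MCM2-7 level was 268, 403 and 650 FPKM (lowest, median, highest) at the 4-cell stage and 144, 602 and 770 FPKM at the 8-cell stage. The sum at the medians was thus higher at the 8-cell stage, with ranges that overlapped. All 6 genes were above an FPKM of 1 in 17 of 24 and 22 of 26 blastomeres. Of the other Mcm genes of the list, none was called. Mcm8, a partner of Mcm9, had medians of 2.02 and 2.17 FPKM and no settled direction. Its log2 difference of -0.04 became -1.31 without the columns named NA and lay between -1.10 and 1.02 with single blastomeres left out, and it was -1.77 against S1 to S12 and 1.29 against S13 to S24. Mcm10, which helps activate the helicase, had medians of 47.3 and 59 FPKM (log2 difference 0.31, and 0.03 and 0.90 against either set of columns).

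**Figure D3:**
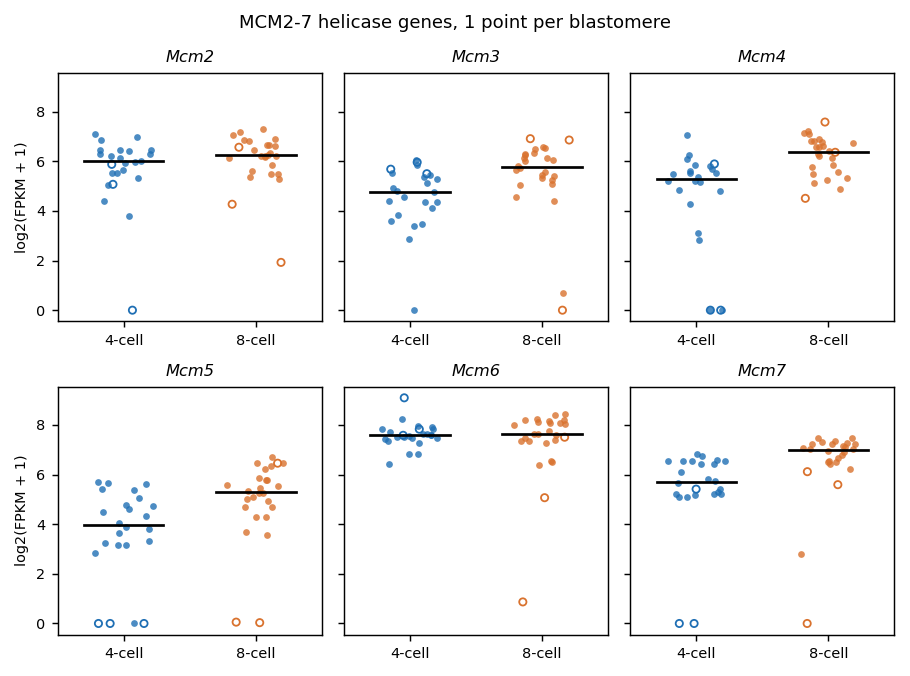
Level of the 6 MCM2-7 genes as log2(FPKM + 1) in each blastomere of the 4-cell stage (blue, 24 points) and the 8-cell stage (orange, 26 points), with the stage median as a bar and open circles for blastomeres with fewer than 5000 genes above an FPKM of 1. Mcm3, Mcm4, Mcm5 and Mcm7 have higher 8-cell medians while Mcm2 and Mcm6 have medians close together, and several of the points at 0 are open circles.

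Cdc45 and the GINS genes, whose products turn the MCM ring into the working helicase, lay on the other side. All 5 had an 8-cell median below the 4-cell median, by log2 differences of -0.56 to -2.08, with a group median of -0.88. With means in place of medians Gins4 lay at 0.09 and Gins2 at -0.40. Against the columns S13 to S24 alone Gins1 lay at -0.15 and Gins2 at -0.20, and against S1 to S12 at -0.94 and -2.46. Cdc45 (chr16:18780447-18811972) was at 80.2, 147 and 479 FPKM at the 4-cell stage and at 0, 69.5 and 174 FPKM at the 8-cell stage. Of the 24 4-cell blastomeres all exceeded the 8-cell median, and only 1 of the 26 8-cell blastomeres exceeded the 4-cell median. The log2 difference was -1.07 and the 8-cell level was the lower in 94.6% of pairs. Without the gene-poor blastomeres, among them the one listed at 0, the lowest 8-cell level was 25.5 FPKM, the highest 4-cell level was 258 FPKM and the difference was again -1.07. Against S1 to S12 and S13 to S24 it was -0.96 and -1.19.

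Gins1 had medians of 105 and 69.3 FPKM (log2 difference -0.59), Gins4 of 121 and 82 FPKM (-0.56), and Gins3 of 32.4 and 17 FPKM (-0.88). Gins1 and Gins4 were abundant and Gins3 intermediate at both stages. Gins2 stood far below them although its product is in the same complex. It had medians of 3.89 and 0.14 FPKM and was listed at 0 in 9 of 24 and 12 of 26 blastomeres. Its difference of -2.08 rests on a median near 52.1 fragments at the 4-cell stage and 2.5 at the 8-cell stage, and the pair share was 57.4% in the lower direction. In addition, 11.4% of its exon bases lie in exons of Gse1.

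Among the licensing factors, Cdt1 and its inhibitor differed in opposite directions at the medians. Gmnn (chr13:24751845-24761937), the most abundant of the 46 genes by its median at both stages, was at 220, 430 and 652 FPKM in 4-cell blastomeres and at 129, 270 and 501 FPKM in 8-cell blastomeres. Only 1 of 26 8-cell blastomeres exceeded the 4-cell median, and the 8-cell level was the lower in 85.3% of pairs (log2 difference -0.67). Cdt1 (chr8:122568015-122573130) was at 0, 90.4 and 221 FPKM at the 4-cell stage and at 71.6, 138 and 321 FPKM at the 8-cell stage. Of the 8-cell blastomeres 22 of 26 exceeded the 4-cell median, and the pair share was 74.7%, just under the threshold. The log2 difference of Cdt1 was 0.60, which became 0.32 without the columns named NA and 0.23 against S13 to S24 alone.

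The ratio of Gmnn to Cdt1 within a blastomere was 1.1, 4.96 and 26.1 (lowest, median, highest over the 23 4-cell blastomeres with Cdt1 above 0) and 0.83, 2.02 and 6.31 over the 26 8-cell blastomeres. The highest 4-cell ratio came from a gene-poor blastomere, and the next was 14.8. Gmnn was above Cdt1 in all 24 4-cell blastomeres and in 22 of 26 8-cell blastomeres. The median ratios without the gene-poor blastomeres were 4.96 and 1.58. Cdc6, the ATPase that acts with Cdt1 in loading, had medians of 63.1 and 60.6 FPKM and a pair share of 50% over all columns. Its 4-cell median was 44.7 FPKM in S1 to S12 and 102 FPKM in S13 to S24, so the log2 difference was 0.43 against the former and -0.75 against the latter. Both differences use the median of all 26 8-cell columns, yet the 8-cell level of Cdc6 also differed by column number. It was 85.2 to 152 FPKM in S59 to S67 and 0.09 to 105 FPKM in the other 8-cell columns. Among those others only S54 was above 70.7 FPKM.

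The medians of the origin recognition genes, apart from Orc3, differed by less than 0.5 on the log2 scale over all columns. Orc3 (chr4:34566781-34614963) was at 0, 8.48 and 30.5 FPKM in 4-cell blastomeres and at 0.01, 20.3 and 48.7 FPKM in 8-cell blastomeres, with 24 of 26 8-cell values above the 4-cell median. Its log2 difference was 1.17 and its pair share 80.4%, and without the gene-poor blastomeres these were 0.99 and 77.2%. Against S1 to S12, with a median of 16.6 FPKM, the difference was 0.31, and against S13 to S24, with 0.97 FPKM, it was 3.52. Orc6 was the most abundant subunit transcript, with medians of 162 and 115 FPKM. It lay lower at the 8-cell stage by 0.49 on the log2 scale, and lower in 73.2% of pairs, but with means in place of medians the difference was 0.05.

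Orc1, an ATPase that acts with Cdc6, had medians of 22.5 and 18.7 FPKM and was listed at 0 in 5 of 26 8-cell blastomeres and in no 4-cell blastomere. The 8-cell blastomeres at 0 were the neighbouring columns S54 to S57 and a column named NA. The log2 difference of Orc1, -0.25 over all columns, became -1.60 with means, and was 0.01 against S1 to S12 and -1.74 against S13 to S24. Orc2 had medians of 27 and 25.8 FPKM. Orc5 had medians of 36.4 and 37.1 FPKM, but its 4-cell median was 56.9 FPKM in S1 to S12 and 3.5 FPKM in S13 to S24, with differences of -0.61 and 3.73. Orc4 was slightly lower at the 8-cell stage (29 and 21.4 FPKM, log2 difference -0.42). Overlap with Acvr2a covers 8.51% of its exon bases.

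**Figure D4:**
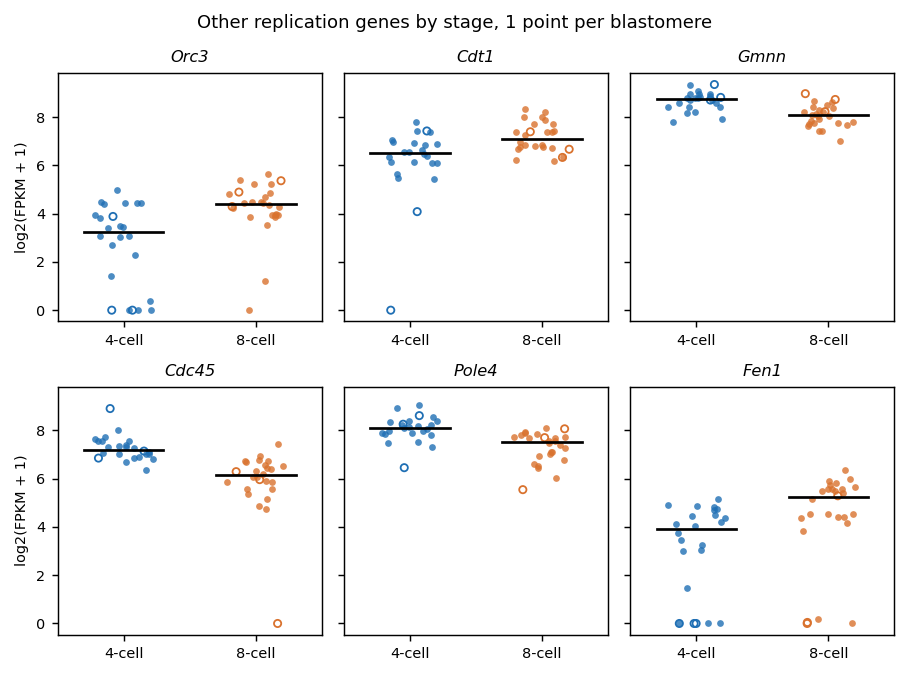
Level of Orc3, Cdt1, Gmnn, Cdc45, Pole4 and Fen1 as log2(FPKM + 1) in each blastomere of the 4-cell stage (blue, 24 points) and the 8-cell stage (orange, 26 points), with the stage median as a bar and open circles for blastomeres with fewer than 5000 genes above an FPKM of 1. Orc3, Cdt1 and Fen1 have higher 8-cell medians, and Gmnn, Cdc45 and Pole4 have lower ones.

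Of the polymerase genes, no group differed in 1 direction by the threshold. For polymerase epsilon, the leading-strand enzyme, the small histone-fold subunit Pole4 (chr6:82616532-82653043) was at 86.8, 276 and 523 FPKM at the 4-cell stage and at 45.7, 182 and 276 FPKM at the 8-cell stage. No 8-cell blastomere exceeded the 4-cell median, and the 8-cell level was the lower in 85.6% of pairs (log2 difference -0.60, and -0.50 and -0.83 against either set of 4-cell columns). Its partner Pole3 had medians of 60.6 and 73.6 FPKM, with differences of -0.42 against S1 to S12 and 0.73 against S13 to S24. The catalytic subunit Pole (4.43 and 3.83 FPKM) and the second subunit Pole2 (25.2 and 22.1 FPKM) were far lower than Pole4 at both stages.

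For polymerase delta, the lagging-strand enzyme, the catalytic Pold1 had medians of 4.46 and 8.57 FPKM (log2 difference 0.81), Pold2 of 16.3 and 25.5 FPKM (0.62), and Pold3 of 122 and 144 FPKM (0.24). Over all columns the 3 had higher 8-cell medians and none reached the threshold. The difference of Pold1 was 0.73 against S1 to S12 and 1.96 against S13 to S24, and that of Pold2 0.10 and 2.04. In Pold4, listed at 0 in 20 of 24 and 22 of 26 blastomeres, 64.2% of exon bases are shared with Gm45928. For the primer-making complex, Pola1 had medians of 11.4 and 13.7 FPKM, Pola2 of 17.8 and 11.1, Prim1 of 74.8 and 71.3, and Prim2 of 26.7 and 20.9 FPKM. In these 3 polymerases, the polymerase catalytic subunit transcripts Pola1, Pold1 and Pole were thus below at least 1 other subunit at both stages. For Pola1 at the 8-cell stage these were the primase genes Prim1 and Prim2, since Pola2 was lower.

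The clamp Pcna was at 3.05, 132 and 288 FPKM at the 4-cell stage and 22.6, 121 and 304 FPKM at the 8-cell stage, medians that differed by -0.14 on the log2 scale. Its ranges without the gene-poor blastomeres were 63 to 175 and 22.6 to 178 FPKM. Of its loader, the large subunit Rfc1 had medians of 35.5 and 32.5 FPKM (log2 differences of 0.03 and -0.57 against either set of 4-cell columns). Rfc5 had medians of 60.8 and 48.9 FPKM (log2 difference -0.31). Rfc2 had 39.7 and 56.6 FPKM (0.50), with 22 of 26 8-cell blastomeres above the 4-cell median, but its difference was -0.13 against S1 to S12 and 0.93 against S13 to S24. Rfc3 was higher at the 8-cell stage by 0.95 on the log2 scale (27.1 and 53.3 FPKM). Rfc4 was at 0, 9.83 and 94 FPKM and then at 0, 42.9 and 94.5 FPKM, a log2 difference of 2.02. It was listed at 0 in 8 of 24 4-cell blastomeres and 1 of 26 8-cell blastomeres. All 8 of these 4-cell blastomeres are among columns S13 to S24, where Rfc4 was at 0 to 9.86 FPKM, against 6.48 to 94 FPKM in S1 to S12. Against S1 to S12 the difference was -0.07, so the higher 8-cell level rests on the other columns. Without the gene-poor blastomeres the Rfc4 difference was 0.58, and 13.2% of its exon bases lie in exons of Eif4a2, so its stage difference is uncertain.

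None of the RPA genes, which coat single-stranded DNA, reached the threshold. Rpa2 was the most abundant (medians 158 and 170 FPKM), Rpa3 had 25.6 and 29.5 FPKM, and Rpa1, the large subunit, had 9.36 and 13.5 FPKM (log2 difference 0.48, and 0.15 and 1.30 against either set of 4-cell columns). Fen1 and Lig1, which act together on Okazaki fragments, were both higher at the 8-cell stage. Fen1 (chr19:10199132-10204393) was at 0, 14 and 34.7 FPKM and then at 0, 36.6 and 81.8 FPKM. No 4-cell blastomere exceeded the 8-cell median of Fen1, and its log2 difference was 1.33 (1.28 without the gene-poor blastomeres, 1.08 against S1 to S12 and 2.10 against S13 to S24). Lig1 was at 0, 3.46 and 22.2 FPKM and then at 0, 8.04 and 25 FPKM, and its difference of 1.02 became 0.83 without the gene-poor blastomeres and 0.49 against S1 to S12.

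Set beside the promoter windows, 6 of the 25 genes with an E2F core had a difference of at least 1 towards the 8-cell stage, against 5.4% of all tested genes, and none in the other direction, against 10.1%. Of the 25, 4 were higher without the gene-poor blastomeres, since Orc3, Rfc4 and Lig1 were no longer called and Mcm3 was, against 5.19% of all tested genes. Against S1 to S12 alone 2 of the 25 were higher (3.54% of all tested genes) and 1 lower (14.7%), and against S13 to S24 alone 11 were higher (13.2%) and 2 lower (10.6%). Of the 13 genes with a window but no core, none was higher by that measure and 1, Cdc45, was lower over all columns, while 3 were higher and 1 lower against S13 to S24. The median log2 differences were 0.24 and 0, respectively. Pole4 and Mcm6 carry the core too, and were lower and level, so the core did not mark the direction gene by gene.

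A list of 58 other replication and S-phase genes, which regulate the machinery or supply nucleotides and histones, was set beside the 46. Their median log2 difference was -0.02 over the 57 that passed the filter. A difference of at least 1 was found for 5 of the 57 towards the 8-cell stage (8.77%, against 5.4% of all tested genes) and for 7 in the other direction (12.3%, against 10.1%), shares not far from those of all genes. With the gene-poor blastomeres left out, 4 were higher (5.19% of all tested genes) and 6 lower (10.8%). With S1 to S12 alone the counts were 4 (3.54%) and 7 (14.7%), and with S13 to S24 alone 8 (13.2%) and 11 (10.6%). E2f4 and Rnaseh2b stayed higher, and E2f1, Rb1, Rad17 and Rad9a lower, by the threshold in each of these. Over all columns the higher ones were Donson, a helicase-assembly factor (0.18 and 4.72 FPKM), E2f4, a mostly repressive E2F (3.61 and 10.8 FPKM), the pocket protein gene Rbl1 (0.07 and 1.44 FPKM), the checkpoint kinase gene Chek1 (10.2 and 24.1 FPKM) and the RNase H2 subunit gene Rnaseh2b (34.2 and 82.7 FPKM). The difference of Donson was 2.44 against S1 to S12 and 0.03 against S13 to S24, and that of Rbl1 0.07 and 1.28.

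The lower ones included 3 genes of the checkpoint clamp and its loader. Rad17, the loader subunit, had medians of 37.1 and 10.7 FPKM (log2 difference -1.70), Rad9a of 23.4 and 4.45 FPKM (-2.18), and Rad1 of 17.8 and 8.1 FPKM (-1.04). Hus1, the remaining clamp gene, had medians of 2.76 and 1.66 FPKM. The others were the retinoblastoma gene Rb1 (7.22 FPKM and a median of 0), E2f1 (1.73 and 0.07 FPKM), the fork checkpoint mediator Clspn (6.93 and 2.69 FPKM) and Wdhd1, a factor that links polymerase alpha to the helicase (8.44 and 3.51 FPKM), whose difference became -0.33 without the gene-poor blastomeres. In at least 75% of pairs the 8-cell level was the higher for 2 of the 57 genes (3.51%, against 2.71% of all tested genes), Rnaseh2b and Ssrp1. It was the lower for 8 (14%, against 4.55%), namely Dbf4, Tipin, Clspn, Ccne1, Ccna2, Rb1, Rad17 and Rad1. The counts of lower genes by this measure were 8 without the gene-poor blastomeres (6.4% of all tested genes), 11 against S1 to S12 (9.22%) and 8 against S13 to S24 (6.69%), and those of higher genes were 3 (3.33%), 3 (2.45%) and 7 (8.6%).

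Between blastomeres of 1 stage, the median correlation among replication genes lay close to 0, as it did among genes in general. Spearman's rho was taken for each pair of genes that exceeded an FPKM of 1 in 50% or more of the blastomeres, as a description over blastomeres that share embryos and differ in depth. At the 4-cell stage the median rho was 0.08 over 946 pairs of 44 replication genes and 0.05 over all pairs of 6878 genes. At the 8-cell stage it was 0.0044 over 903 pairs of 43 genes and 0.02 over all pairs of 6325 genes. The shares of pairs above 0.5 were 4.44% and 1.33% for replication genes, against 4.19% and 1.81% for all pairs.

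Pairs within 1 complex had medians near 0 for most complexes. The 15 MCM2-7 pairs had a median rho of 0.09 at the 4-cell stage (from -0.25 for Mcm3 and Mcm5 to 0.58 for Mcm5 and Mcm7) and of 0.02 at the 8-cell stage (from -0.48 for Mcm3 and Mcm5 to 0.30 for Mcm2 and Mcm6). The origin recognition pairs had medians of 0.03 and 0.09, the CDC45 and GINS pairs 0.06 and -0.05, and the clamp and loader pairs 0.05 and -0.01. The 3 pairs of Pold1, Pold2 and Pold3 had the highest 8-cell median among groups of more than 1 pair (0.36), with 0.01 at the 4-cell stage. Fen1 and Lig1 gave 0.14 and 0.40. Cdt1 and Gmnn gave -0.23 and -0.18.

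The highest single value at the 4-cell stage was 0.71 for Orc3 and Mcm5 and the lowest -0.73 for Mcm3 and Rpa3. Within S1 to S12 and S13 to S24 the former was 0.87 and 0.36, the latter -0.54 and -0.87, and the median over pairs 0.04 and 0.09. At the 8-cell stage the extremes were 0.73 for Orc2 and Pola1 and -0.64 for Mcm2 and Rfc5. The latter 2 genes differed by column number. Rfc5 was at 45.2 to 155 FPKM in columns S48 to S58 and at 0 to 50.2 FPKM in S59 to S68. Mcm2 was at 2.8 to 111 FPKM in the former and at 47.2 to 155 FPKM in the latter. The 8-cell pairs were not taken again within sets of columns. The number of genes per blastomere moved with some of the replication genes at the 4-cell stage, with a rho of 0.68 for Pold2, 0.63 for Pole3, 0.61 for Rfc4, 0.53 for Rpa3, 0.52 for Orc3 and -0.67 for Orc1. At the 8-cell stage the values past 0.5 were 0.65 for Pold2, 0.62 for Pold3 and 0.51 for Lig1, so that Pold2 and Pold3 of the polymerase delta pairs both moved with it. Its part in the pairwise values was tested for the median alone, which was 0.05 and 0.01 after regression on the number of genes. Without the gene-poor blastomeres the medians for replication genes were 0.03 and 0.002, against 0.01 and 0.006 for all pairs.

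**Figure D5:**
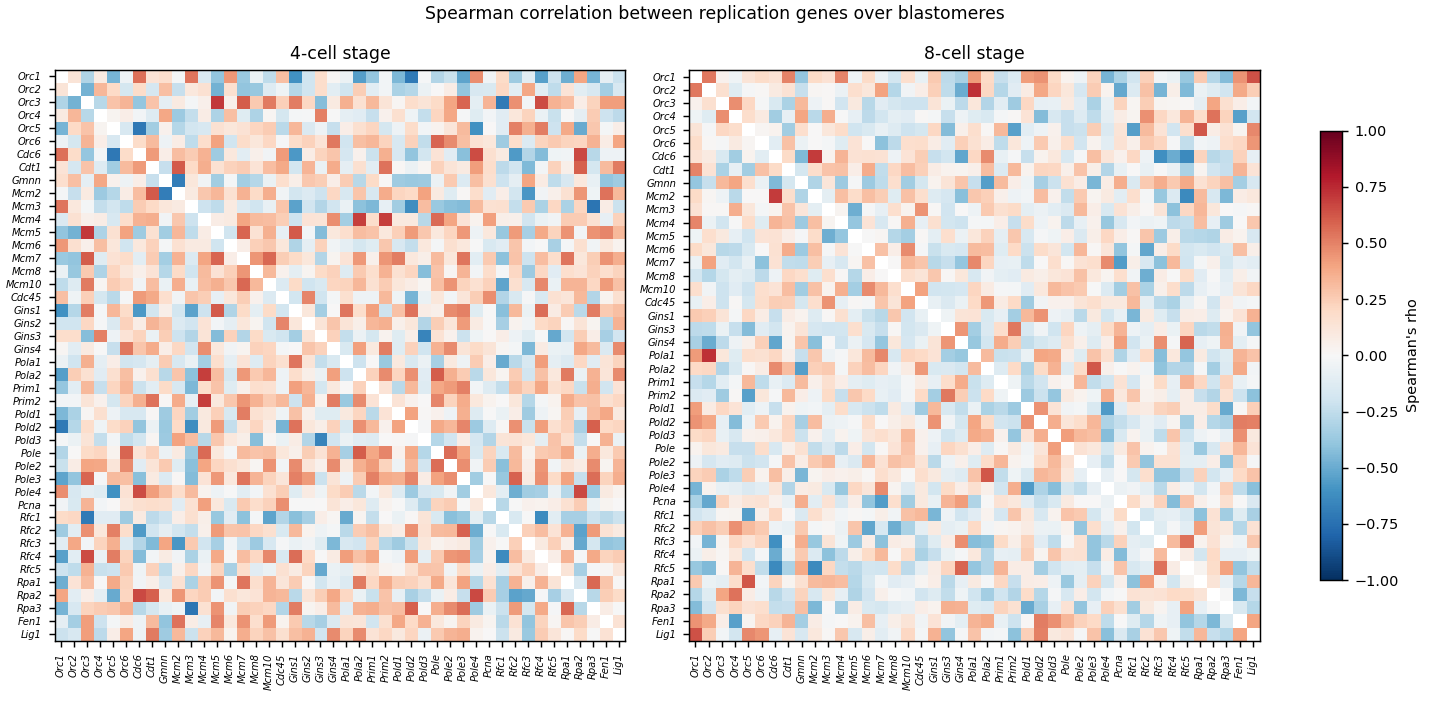
Spearman's rho between each pair of replication genes over the 24 blastomeres of the 4-cell stage (left, 44 genes) and the 26 blastomeres of the 8-cell stage (right, 43 genes), from blue (-1) through white (0) to red (1), in the order of their roles. The medians are 0.08 and 0.0044, and along the diagonal the small 8-cell block of Pold1, Pold2 and Pold3 has a median of 0.36.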

How the data were processed

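Single blastomeres were profiled with Smart-seq2. Per the submitters' processing notes and the methods, the authors aligned reads with STAR 2.5.1b to mm10, counted them with HTSeq on RefSeq genes, and deposited FPKM values in 1 table per stage. The gene lengths and totals behind the FPKM, and whether counting used strand, are not given in the sources used here. None of the 50 columns (5 named NA) matches a sample label. All were used, as 1 sample per stage, with the stage taken from the study's text, whose numbers of expressed genes per stage equal the rows of the tables. Depth was estimated from the smallest steps of FPKM times transcript length in genes with 1 transcript, where at least 90.8% of low values came out within 0.1 of a whole fragment. This step was tested on simulated data, which recovered 24 of 24 and 26 of 26 depths. It covers counting error only.

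Levels were compared as log2(FPKM + 1) with Python 3.11.15, pandas 2.3.3, numpy 2.4.6 and scipy 1.17.1. The pseudocount of 1 understates the difference of low genes. No differential expression test was run. Named were all 46 genes, the other replication genes that differ by at least 1, and pairs within complexes or at the extremes; genes named by pair share, markers and overlapping genes were added after their values were seen. The genes and lists were chosen with earlier results of these data known. Repeat tables were not used.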

Additional observations from a re-analysis of the deposited data

How the results depend on the processing

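Alternatives were a pseudocount of 0.1, scaling to 1 sum or by median-ratio size factors, means in place of medians, and leaving out the columns named NA, the gene-poor blastomeres or each blastomere in turn. In these, the number of genes higher by at least 1 stayed between 5 and 9 (7 as reported), and of genes lower between 2 and 3 (2 as reported), and Mcm4, Mcm5, Mcm7 and Fen1 were higher and Cdc45 lower in each. The 4-cell columns S1 to S12 or S13 to S24 alone, added after the data had been seen, moved more. The number of genes higher was 3 and 14 (3.54% and 13.2% of all genes), the number lower in at least 75% of pairs was 5 against S1 to S12 (9.22% of all genes), the number higher in at least 75% of pairs was 10 against S13 to S24 (8.6% of all genes), and the median difference was 0.25 there. Rfc4 turned to -0.0743 against S1 to S12 and lay at 5.46 against S13 to S24. Only Fen1 was called under every alternative. Orc3, Rfc4 and Lig1 were no longer called without the gene-poor blastomeres. Lig1 was also not called after scaling to 1 sum, without the columns named NA, with means or with some single blastomeres left out (0.84 to 1.19). With means Gins2 was not called, while Orc1 was lower by the threshold (-1.60) and Pold1 higher (1.06). Without the columns named NA Mcm8 was lower (-1.31). Mcm3 was called under each of the first alternatives except means and some single blastomeres left out, and Rfc3 under both scalings. With means the differences of Orc6, Mcm6, Mcm8, Gins4, Pola1, Prim1, Prim2, Pole2 and Pole3 (each under 0.6) changed sign. The Gins2 difference was -4.08 with a pseudocount of 0.1.

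The number of genes with a lower 8-cell level in at least 75% of pairs was 3, but 6 without the gene-poor blastomeres and 3 to 5 with each blastomere left out in turn. The number above the threshold in every 4-cell blastomere was 11, 23 without gene-poor blastomeres and 6 at a threshold of 5 FPKM. The last count is given without its share of all genes, so it cannot be set against them. For the 8-cell stage it was 11, and 20 without gene-poor blastomeres. No other difference of at least 1 changed sign. Mcm8, which was not called, passed the threshold in either direction with single blastomeres left out (-1.10 to 1.02). The median difference of all genes was 0 under each scaling. Of the 13041 tested genes 4567 lay at a difference of 0, with 3633 above and 4841 below. This median could therefore hardly move, and it cannot show whether scaling matters. No paired analysis was possible because no embryo or replicate number is known for any column from its name. Whether the depths of the columns follow the mapped reads that the paper lists by embryo was not tested. Gins2 rests on medians of 52.1 and 2.5 fragments.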
